A study of Mus musculus with 4 samples.

Results

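The 2408 genomic intervals of at least 10000 bases probed by an expression array were followed across 4 fractions sorted from mouse bone marrow. The array names 37889 distinct features. Of these, 4607 are named only by a stretch of the mm9 mouse genome and an orientation, F or R, and 2408 of the stretches span at least 10000 bases. The other 2199 intervals are shorter and serve for comparison. The members were chosen by name and length alone, so no measured value entered the choice. Which genomic strand F and R stand for is not given in the sources used here.

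Transcription outside annotated genes gives long non-coding RNAs, antisense RNAs and unprocessed nuclear transcripts. Many such RNAs are weakly expressed and restricted to few cell types, and a few are known to guide chromatin complexes to nearby genes. In blood formation, stem cells pass through progenitors to mature cells while large parts of the transcriptome are switched on and off. Long non-coding RNAs have been described as regulators at several of those steps.

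RNA came from 8-week-old female C57BL6 mice, all untreated as far as the labels say. CD34- ckit+ Sca1+ Lineage- cells are the long-term haematopoietic stem cells (LT-HSC) of the labels, and CD34+ ckit+ Sca1+ Lineage- cells the short-term ones (ST-HSC). Progenitors were ckit+ Lineage- by their sample label, whereas the common sorting protocol calls them Sca1- and also mentions Lineage+ cells, so the gate is uncertain. Differentiated cells were Lineage+ (Lin+). How many mice contributed to a fraction is not given in the sources used here. Each fraction was hybridised once, to 1 single-colour Agilent array, so n = 1 throughout. Replicate spread is therefore unknown and nothing was tested. The number after ± is the scanner software's own error of a spot, which covers neither mice nor sorts.

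Signal is given as log2 intensity relative to the 75th percentile of all probes on the same array, called scaled signal below, so that 0 marks that percentile. On the intensity scale that percentile was 137 for the progenitors, the dimmest array, and 192, 217 and 230 for the LT-HSC, ST-HSC and Lin+ arrays. The share of all 55678 probes well above background ran from 40.9% to 45.9%. Of 17 marker genes looked up, some followed the labels and some did not. Hlf, a stem cell transcription factor, had scaled signals of 5.09, 4.14, 0.94 and -1.23 in LT-HSC, ST-HSC, progenitors and finally Lin+ cells. Ltf, which encodes the neutrophil granule protein lactoferrin, had -2.58, -2.59, -1.52 and 9.74 in the same order. Values listed 4 at a time below keep that order. Ly6a, which encodes Sca-1, had 4.52, 3.12, 2.28 and 4.51, as high in Lin+ cells as in LT-HSC. Cd34 had 7.34, 8.53, 7.51 and 3.26, so its RNA was present in the fraction sorted as CD34-.

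The members fell on 1576 regions. Of these, 832 were probed in both orientations and 744 in 1, which gives 1196 F and 1212 R members. Lengths ran from 10001 to 7128487 bases with a median of 24801, and 182 members were longer than 100000 bases. Overlap was common: 566 members overlapped another member of the same orientation, and all members together formed 1247 separate loci. Members are therefore not independent of each other. A member carried 1 to 10 probes with a median of 4, and the brightest probe over the 4 arrays stood for it.

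Of the 2408 members, 1544 were well above background on at least 1 array, 929 on all 4 and 864 on none. By the brightest probe, the word transcribed can therefore be applied to no more than 1544 of them in these cells. Other probes of a member did not enter this count. Whether they are unannotated was not examined, because the gene table at hand describes another genome build, GRCm38. F and R members were detected about equally often, 758 of 1196 against 786 of 1212. By fraction, 1054 members (43.8%) were well above background in LT-HSC, 1244 (51.7%) in ST-HSC and 1170 (48.6%) in progenitors. In Lin+ cells 1300 (54.0%) were. For short intervals the shares were 34.5%, 40.9%, 38.2% and 44.4%. Among the named genes and other features the shares were 49.2%, 51.3%, 48.9% and 53.5%.

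These shares differed with the number of probes on a member. Detection on at least 1 array was 38.4% of members with 1 probe, 70.1% with 4 and 88.5% with 10. Counted per probe instead, 20.6% to 27.2% of the 9577 probes of long intervals were above background, near the 19.1% to 25.6% for short intervals and below the 49.0% to 53.8% for other features. Among intervals with 1 probe, long ones were above background in 25.7% to 33.0% and short ones in 21.3% to 29.2%. Negative control spots were flagged at 1.30% to 2.27%. Members that were detected were dim: their median scaled signal lay between -1.06 and -0.51, against 1.12 to 1.62 for other detected features.

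**Figure D1:**
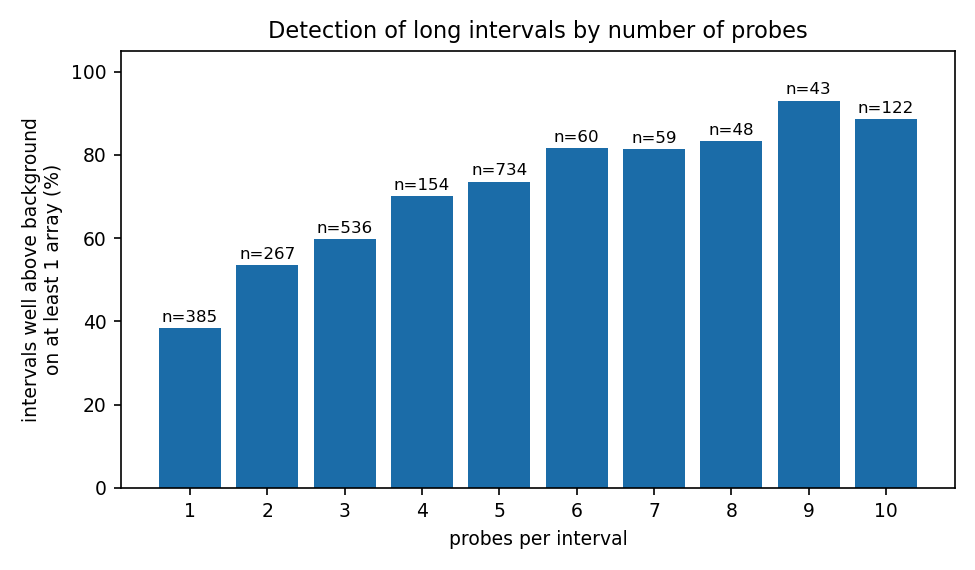
Percentage of long intervals well above background on at least 1 of 4 arrays (vertical axis) by the number of probes on the interval (horizontal axis); n above each bar is the number of intervals. The percentage is 38.4% for 1 probe, 70.1% for 4 and 88.5% for 10.

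Among the 929 members measured on all 4 arrays, 485 stayed within a 2-fold range and 96 ranged over 4-fold or more, with a median range of 0.96. The highest of the 4 values fell in progenitors for 537 members, in Lin+ cells for 229, in LT-HSC for 91 and in ST-HSC for 72. The lowest fell in ST-HSC for 288, in LT-HSC for 282, in Lin+ cells for 280 and in progenitors for 79. The shares with their highest value in progenitors were 57.8% of members and 45.1% of the 16104 features measured on all arrays. In Lin+ cells they were 24.7% and 22.2%. A range of 4-fold or more was seen in 10.3% of members and 15.7% of those features. With other scalings, chosen for these counts after the data were seen, members highest in progenitors numbered 510 (medians), 371 (percentile over detected probes) and 232 (spike-in controls), the last below the 403 highest in Lin+ cells. In the same order, 54.9%, 39.9% and 24.97% of members were highest in progenitors. Of the features measured on all arrays 39.4%, 29.3% and 14.3% were, a lower share each time. The progenitor array was the dimmest, and the direction of its comparisons changed with the scaling, as given beside each. In bulk RNA, fewer cells that express a transcript and less of it per cell cannot be told apart.

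Few members differed between LT-HSC and ST-HSC. The threshold for a higher or lower member was a 2-fold difference with 1 side or both well above background. A side below background took the array's detection floor, or its own value where that was higher, so such a difference is a lower bound. Where that left the detected side no higher, the difference was set to 0 and the member or feature still counted as compared. Of 1296 members compared, 81 were higher in ST-HSC (6.25%, 51 of them bounds) and 60 lower (4.63%, 38 of them bounds). Over all features the percentages were 5.84% and 7.81%. The 1002 members measured on both sides had a median difference of -0.01, with 481 above 0, beside 0.02 for all features. Of the called members 57.4% were higher, or 77.7% when the arrays were scaled to the spike-in controls.

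Long intervals were more often higher than lower in progenitors when set against ST-HSC. Of 1364 members compared, 234 were higher in progenitors (17.2%, 90 bounds) against 11.0% of all features, and 106 were lower (7.77%, 53 bounds) against 9.35%. The 1050 measured members had a median of 0.54 with 866 above 0, and other features had 0.26, short intervals 0.46 and all features 0.29. The direction depends on the scaling. Of the called members, 68.8% were higher here, 54.8% with arrays scaled to their medians, 46.5% with the percentile taken over detected probes, 44.6% with the median feature set to 0 and 25.2% with spike-in scaling. Members and features were also put in 4 groups by mean scaled signal of both fractions: below -1, -1 to 1, 1 to 3 and above 3. From dim to bright, long intervals gave medians of 0.46, 0.50, 0.61 and 0.65, and other features 0.21, 0.03, 0.10 and 0.45. Signal was not matched within a group.

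From progenitors to Lin+ cells most called members were lower. Of 1419 members compared, 131 were higher in Lin+ cells (9.23%, 54 bounds) and 291 lower (20.5%, 98 bounds), beside 13.9% and 26.0% of all features. The median of 1051 measured members was -0.41, close to the -0.43 of all features. In the same signal groups long intervals gave -0.28, -0.41, -0.43 and -0.78, and other features -0.31, -0.19, -0.34 and -0.72. Of the called members 31.0% were higher, a share that became 58.3% with the percentile over detected probes, 60.6% with the median feature at 0 and 71.6% with spike-in scaling. Both comparisons with progenitors share that array, the dimmest of the 4.

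Between Lin+ cells and LT-HSC, the ends of the series, the median of long intervals lay above 0 and that of other features below. Of 1375 members compared, 194 were higher in Lin+ cells (14.1%, 84 bounds) and 143 lower (10.4%, 65 bounds). All features gave 16.2% and 20.1%, with a median of -0.15. Measured on both sides were 979 of the 1375 members and 16887 of the 21410 features compared. The 979 measured members had a median of 0.10 with 569 above 0, short intervals 0.07 and other features -0.19. The higher share of called members was 57.6%, 40.9% with arrays scaled to their medians and 73.0% with spike-in scaling. The sign of the medians depended on the scaling too: long intervals had -0.15 with arrays scaled to their medians, and spike-in scaling gave them 0.39 and all features 0.14. In the same signal groups the medians of long intervals were 0.12, 0.16, 0.12 and -0.02, those of other features -0.16, -0.11, -0.23 and -0.21.

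**Figure D2:**
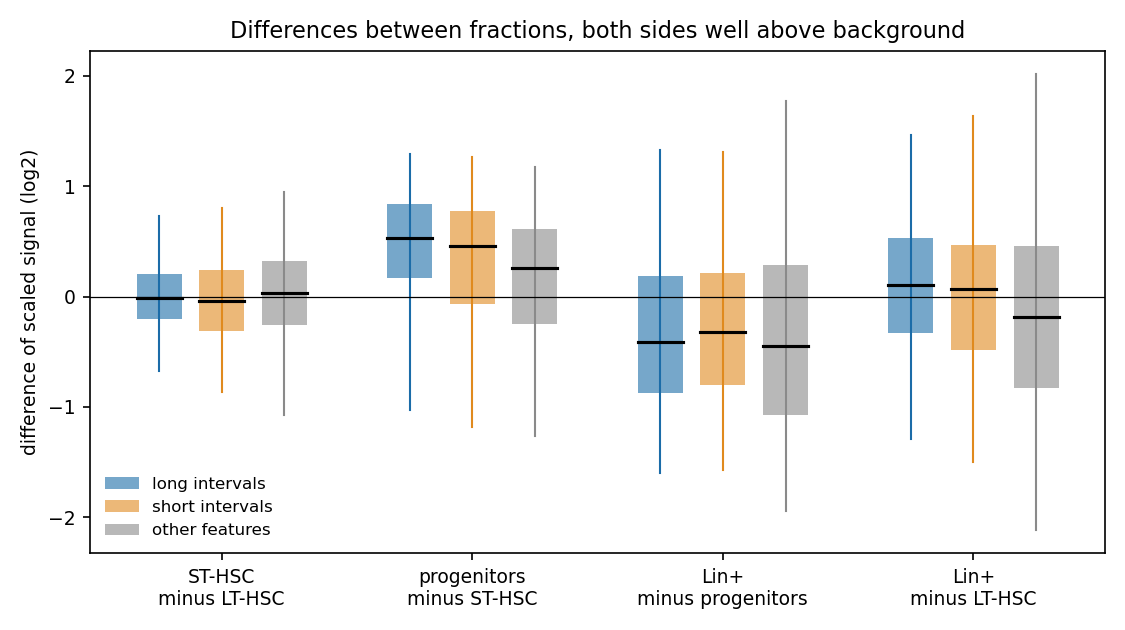
Difference of scaled signal (log2, vertical axis) for 4 comparisons of fractions in long intervals, short intervals and other features, restricted to features well above background on both arrays. Boxes run from the first to the third quartile, black bars are medians and thin lines run from the 5th to the 95th percentile; the medians of long intervals are -0.01, 0.54, -0.41 and 0.10.

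Probes of 1 interval were compared with each other. For 353 members with a second probe measured on all arrays, the differences of the brightest and the second probe correlated across members at r = 0.55 for ST-HSC against LT-HSC, 0.69 for progenitors against ST-HSC, 0.56 for Lin+ against progenitors and 0.63 for Lin+ against LT-HSC. These points share their arrays, and r is given as a description. The median standard deviation between probes of 1 interval was 0.17, 0.23, 0.32 and 0.29, while interval means spread with a standard deviation of 0.42, 0.70, 0.81 and 0.91. Between Lin+ cells and LT-HSC, 38 higher and 46 lower members measured on both sides had another measured probe. The median of those other probes had the same sign in 33 and 39 of them, but differed at least 2-fold the same way in only 18 and 28, and at least 2-fold the opposite way in 0 and 3.

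The members described first are those in which at least 2 other probes were measured and every one of them differed at least 2-fold the same way. This choice was made after their values were seen. From LT-HSC to ST-HSC it left 4 of 10 higher and 3 of 6 lower members, from ST-HSC to progenitors 4 of 27 and 9 of 14, from progenitors to Lin+ cells 3 of 11 and 17 of 57, and between LT-HSC and Lin+ cells 8 of 18 and 10 of 32.

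A group of these was lower in Lin+ cells than in the stem cells. The F interval chr10:83181374-83249774 (68401 bases) had scaled signals of 2.79, 2.95, 0.52 and -1.25, level in both stem cell fractions and lower at each later step. It was lower in Lin+ cells than in LT-HSC by a difference of -4.04 ± 0.22, or 16.5-fold, and its 2 other measured probes gave -4.45 and -4.02. The shorter F interval chr10:83185606-83225506 inside it had 1.25, 1.38, -1.43 and -3.36, the last not well above background, and is not independent of it. The F interval chr6:31170350-31287353 (117004 bases) had 2.03, 0.89, -2.43 and -3.17. It was highest in LT-HSC, and ST-HSC differed from them by -1.14 ± 0.20, with -1.22 and -1.05 from the other probes. Those probes were not well above background in progenitors or Lin+ cells, where the brightest probe gave a 36.6-fold lower signal in Lin+ cells than in LT-HSC.

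The R interval chr9:96632664-96653249 had 0.97, -0.62, -4.34 and -5.38 and was above background in both stem cell fractions and in neither of the others. All 3 of its probes were lower in ST-HSC than in LT-HSC, by -1.59 ± 0.21 for the brightest and by -1.79 and -1.52 for the others. The R interval chr11:112905201-113062945 (157745 bases) had 1.92, 1.43, -0.01 and -0.48 and differed between Lin+ cells and LT-HSC by -2.40 ± 0.21, its other probes by -2.80 and -2.38. The F interval chr17:84397891-84412748 had 2.83, 2.83, 1.66 and -2.10. It was level in the stem cells, 2.25-fold lower in progenitors and 13.5-fold lower again in Lin+ cells, where its other probes were not well above background. The F interval chr4:11893711-11921443 kept 0.50, -0.09 and 0.14 in the first 3 fractions and had -2.93 in Lin+ cells, a step of -3.07 ± 0.30 that its other probes gave as -3.16 and -2.51. Other members of the same orientation overlap chr6:31170350-31287353, chr9:96632664-96653249, chr11:112905201-113062945 and chr4:11893711-11921443. Those overlapping members are not described here.

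Other members were higher in Lin+ cells than in LT-HSC. The F interval chr10:117021051-117038683 had -1.66, 0.47, 0.32 and 1.69, higher in ST-HSC than in LT-HSC and higher again in Lin+ cells. Its difference of Lin+ cells from LT-HSC was 3.35 ± 0.26, or 10.2-fold, and 4 other probes gave 2.57 to 3.29. The R interval chr16:89961600-89971725 had -0.07, -0.24, 1.07 and 3.02, low in both stem cell fractions. It was 8.53-fold higher in Lin+ cells than in LT-HSC, with 3.06 and 3.29 on the log2 scale from 2 other probes against its own 3.09. The R interval chr4:146507925-146532650 had 0.95, 2.01, 2.03 and 2.97 and differed between the ends by 2.02 ± 0.21, its 4 other probes by 1.99 to 2.22. The F interval chr9:14460976-14488051 was bright everywhere, at 5.09, 6.16, 6.93 and 6.43, with the highest value in progenitors. Lin+ cells were above LT-HSC by 1.34 ± 0.20, and 4 other probes gave 1.26 to 1.68.

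Some members stood out in a fraction between the ends. The R interval chr8:82836971-82849309 was highest in ST-HSC, with 0.08, 2.01, 0.42 and 0.75. It was higher than in LT-HSC by 1.92 ± 0.21, beside 1.85 and 2.11 from both other probes, and progenitors differed from ST-HSC by -1.59. The R interval chr8:82854412-82919089 begins 5102 bases past its end and was also highest in ST-HSC, with -2.05, 0.17, -1.56 and -2.66. The F interval chr6:11996975-12037300 had 3.70, 5.15, 3.44 and 3.36, again with the peak in ST-HSC, and 3 other probes were higher there than in LT-HSC by 1.40. Another shape appeared on chromosome 1. The R interval chr1:175705225-175717250 had 2.81, 3.83, 0.96 and 3.21, also highest in ST-HSC but lowest in progenitors. Between Lin+ cells and LT-HSC its 4 other probes differed by -0.83 to -0.62, against 0.40 for the brightest. Its step from ST-HSC was -2.86 ± 0.21, a 7.28-fold difference that 4 other probes gave as -3.22 to -3.02. The overlapping pair chr1:175654606-175672031 and chr1:175660642-175671878, also R, lies 33193 and 33346 bases from it and was also lowest in progenitors by the brightest probe, with 0.82, 1.86, -1.14 and 1.42 for the first and 1.13, 1.94, -0.83 and 0.99 for the second. The first had 1 other probe measured on both sides of the step from ST-HSC, at -2.86. The second rests on 1 probe, since its other probes were well above background in Lin+ cells alone, at -0.74 and -1.03.

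**Figure D3:**
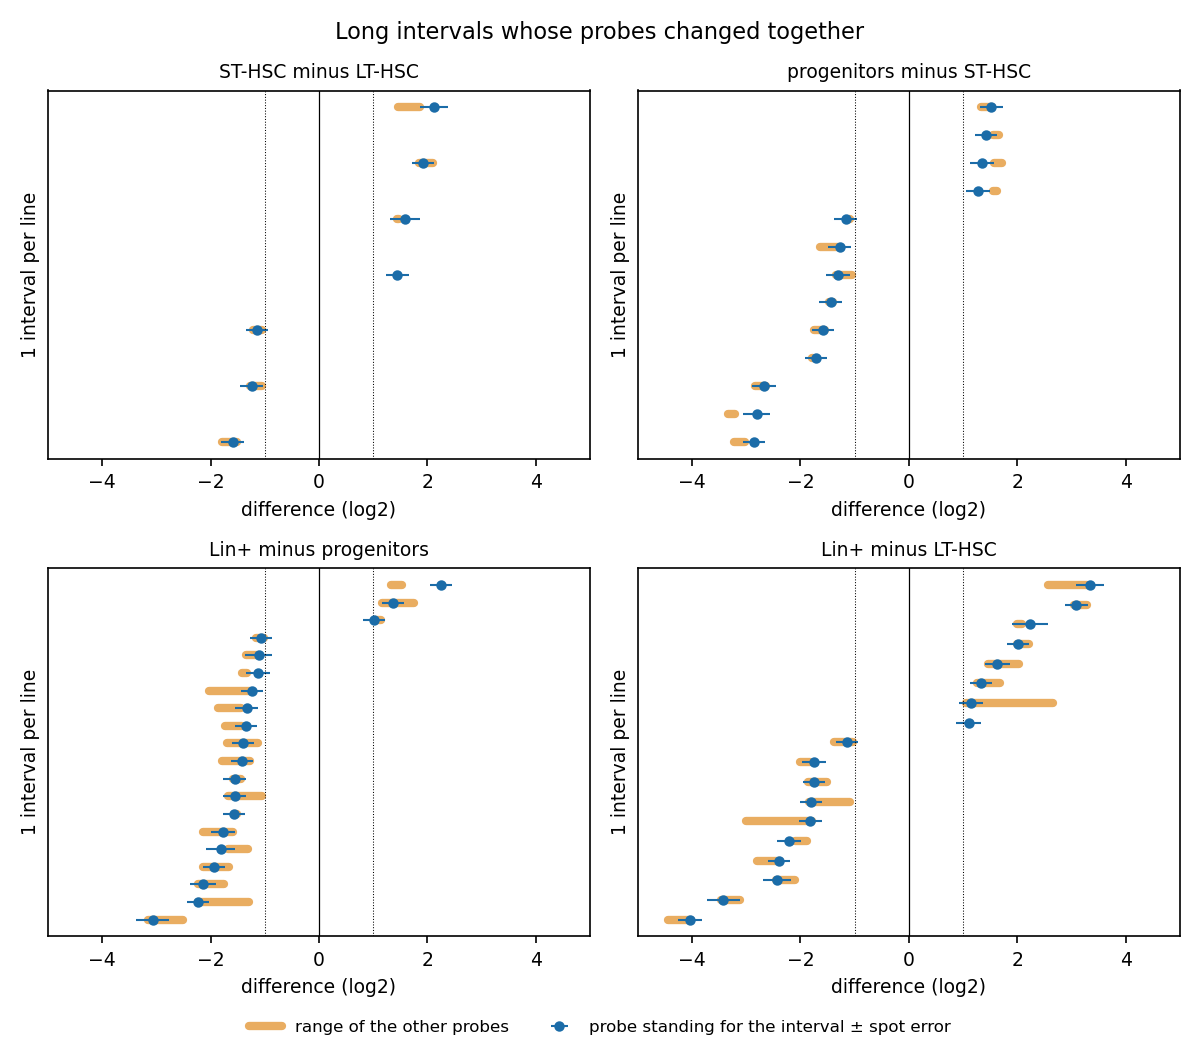
Difference of scaled signal (log2, horizontal axis) in 4 comparisons for the long intervals in which every other measured probe, of at least 2, differed at least 2-fold the same way; each line is 1 interval. Points are the probe that stands for the interval with its spot error, bars the range of its other measured probes and dotted lines 2-fold; the lowest point for Lin+ minus LT-HSC lies at -4.04 and the highest at 3.35.

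The differences of neighbouring members were set against each other by orientation. For 62 pairs of non-overlapping members measured on all arrays and no more than 100000 bases apart, r was 0.43 for ST-HSC against LT-HSC, 0.55 for progenitors against ST-HSC, 0.29 for Lin+ against progenitors and 0.05 for Lin+ against LT-HSC. For 63 such pairs of opposite orientation the values were 0.08, 0.12, -0.13 and -0.04. Pairs share members and arrays, so these are descriptions only. Among the 62 pairs, the R interval chr1:175705225-175717250 was paired with both chr1:175654606-175672031 and chr1:175660642-175671878, which overlap each other. From ST-HSC to progenitors these members differed by -2.86, -3.001 and -2.78, large steps for which the locus was already described above. The R intervals chr8:82836971-82849309 and chr8:82854412-82919089, also described above, formed another of the 62 pairs. In ST-HSC they were higher than in LT-HSC by 1.92 and 2.22. How far the r values rest on these 2 loci was not computed.

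Many of the largest single differences were not shared by an interval's other probes. The F interval chr17:22420025-22457650 had -0.11, 0.07, 0.72 and 6.11 and was 74.4-fold higher in Lin+ cells than in LT-HSC, the largest measured difference in that comparison, while its only other measured probe differed by 0.79. The F interval chr6:145647711-145756861 had 2.34, 2.30, 3.61 and 5.85, against -0.34 to 0.30 for the difference of Lin+ cells from LT-HSC in 4 other probes. The R interval chrX:146827709-146913398 had 0.42, 0.61, 1.53 and 4.14, while 5 other probes gave -0.88 to 0.71 in place of its 3.73. From ST-HSC to progenitors, the R interval chr11:96111499-96126224 was 15.8-fold higher, at 2.48 against -1.51, and its other measured probe differed by 0.01. Where an interval's probes differ like this, the value describes the probe and not the whole interval.

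Few members were restricted to 1 fraction. Required to lie at least 4-fold above each other fraction, 9 members were highest in LT-HSC (0.583% of the 1544 detected, against 0.884% of all detected features), 12 in ST-HSC (0.777% against 0.256%), 22 in progenitors (1.42% against 0.672%) and 35 in Lin+ cells (2.27% against 3.96%). With normexp background correction the counts were 0, 0, 2 and 15, and with the mean of an interval's probes 2, 0, 2 and 6. Of the members first counted, 6, 11, 17 and 18 were above background in that fraction alone, by the brightest probe. Signals were low even there: the median scaled signal of these members was -0.51 for LT-HSC, -0.41 for ST-HSC, -0.33 for progenitors and 0.97 for Lin+ cells. Another probe of the interval was above background in the same fraction for 1 of 7 LT-HSC members, 1 of 12 ST-HSC members, 1 of 21 progenitor members and 13 of 32 Lin+ members with other probes.

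In Lin+ cells, the F interval chr10:69819062-69871640 had 3.90, with -3.97, -3.91 and -3.62 in the other fractions, none of them well above background. It was at least 114-fold higher in Lin+ cells than in LT-HSC, on 1 probe. The F interval chr8:106037800-106070025 had 3.64 in Lin+ cells and was at least 95.8-fold higher there. In progenitors, the F interval chr17:27703181-27716306 had 1.72 and was not above background elsewhere, at least 34.6-fold above ST-HSC. In ST-HSC, the R interval chr12:16003706-16022581 had 0.48 and was at least 10.2-fold above progenitors. In LT-HSC, the R interval chr2:104640443-104659168 had -0.45 and was at least 7.65-fold above ST-HSC. The last 4 of these intervals have other probes, but none was well above background on both sides of those comparisons. For chr12:16003706-16022581, the 4 other probes had -3.80, -4.03, -5.37 and -5.62 in ST-HSC, none of them well above background.

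**Figure D4:**
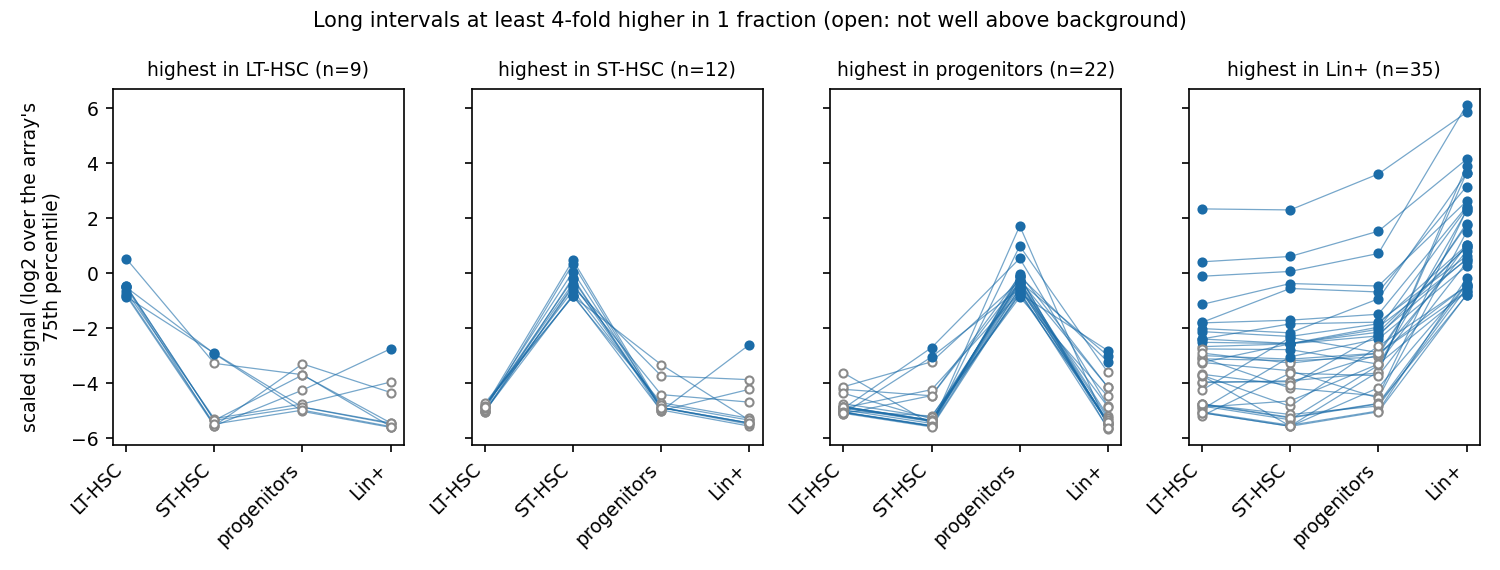
Scaled signal (log2 over the array's 75th percentile, vertical axis) in the 4 fractions for the long intervals that were at least 4-fold higher in 1 fraction than in each other; 1 line per interval, filled points well above background, open points not. The panels hold 9, 12, 22 and 35 intervals, and the highest value, 6.11, is in Lin+ cells.

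Both orientations of a region could be set side by side. Of 832 regions probed both ways, 411 were above background in both, 148 in F only, 163 in R only and 110 in neither. Across the 184 regions measured both ways on all arrays, F and R differences correlated at r = 0.16, 0.14, 0.19 and 0.10 in the order of the comparisons above. Members with both a second probe and the other orientation numbered 164, and a region could enter by each of its orientations. For these, probes of 1 orientation gave r = 0.50, 0.56, 0.60 and 0.65 and the 2 orientations gave 0.16, 0.18, 0.31 and 0.06. The difference between these correlations was not tested, and the points share regions and arrays.

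**Figure D5:**
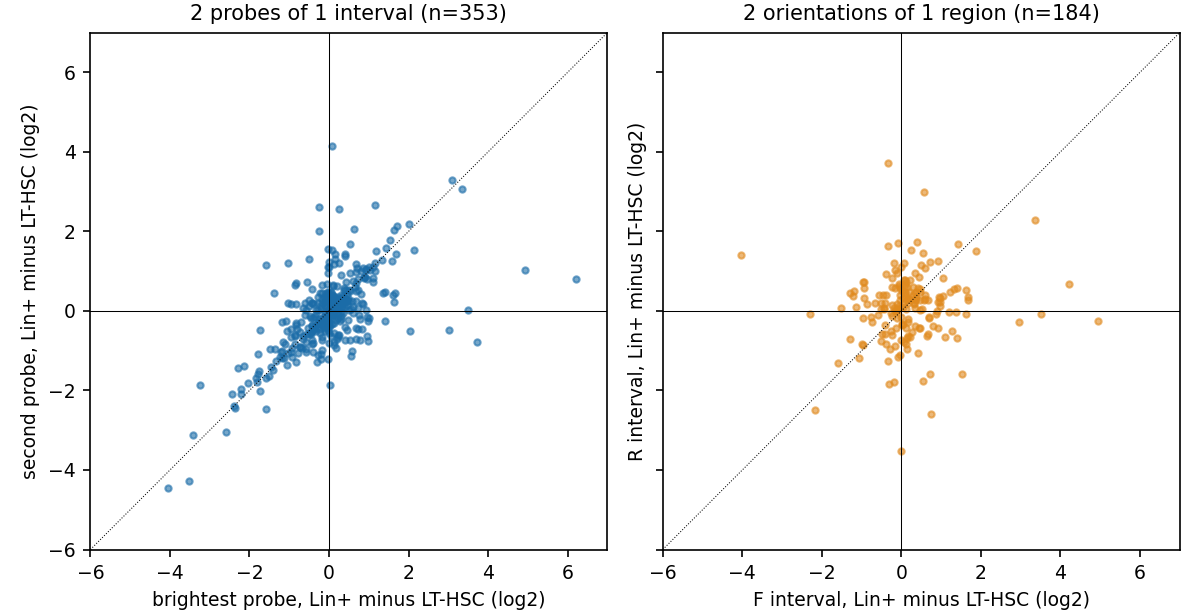
Lin+ minus LT-HSC (log2) of the brightest against the second probe of 1 interval (left, 353 intervals) and of the F against the R interval of 1 region (right, 184 regions); the dotted line marks equal values. Points lie along the line on the left (r = 0.63) and scatter around 0 on the right (r = 0.10).

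Opposite differences of at least 2-fold in F and R were seen in 0 regions from LT-HSC to ST-HSC and in 9 regions in each of the other 3 comparisons, among 292, 327, 359 and 336 regions compared both ways. Both orientations were higher in 1, 12, 4 and 7 regions and both lower in 1, 1, 26 and 5. In 45, 101, 133 and 110 regions only 1 orientation differed at least 2-fold. How many regions of each kind unlinked orientations would give was not computed, so these counts show neither an excess nor a lack. In the region chr10:83181374-83249774, where F was lower in Lin+ cells than in LT-HSC by a difference of -4.04, R differed by 1.42. That R member was dim, at -2.02, -1.42, -2.41 and -0.61. A slightly longer R member that starts at the same base had -1.68, -1.67, -1.2 and -0.95. Its rise from LT-HSC to Lin+ cells was under 2-fold, so the opposite difference was not shared by both R members. In chr9:31834945-32015745, F differed by -2.39 and R by at least 2.27 in the same comparison, with R not well above background in LT-HSC. In chr15:8463685-8494960 F was at least 37.8-fold higher in Lin+ cells than in LT-HSC, at 2.30 against -3.07, not well above background, and R differed by -2.36. Bright in both orientations, chr17:39960567-39992817 had 8.40, 8.84, 9.43 and 8.00 in F and 5.87, 6.14, 6.27 and 5.03 in R, with a step from progenitors to Lin+ cells of -1.42 in F and -1.23 in R.

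Medians were similar across lengths. In 4 length groups, bounded at 15176, 24751 and 45429 bases, the medians for progenitors against ST-HSC were 0.54, 0.55, 0.56 and 0.49, those for Lin+ against progenitors -0.40, -0.47, -0.47 and -0.36. Detection on at least 1 array was 61.3%, 66.5%, 62.4% and 66.4%. Among chromosomes, X and 1 were singled out after their values were seen. On X, 3 members were higher (6.25%) and 12 lower (25%) in Lin+ cells than in LT-HSC among 48 compared, with a median of -0.33. Chromosome 1 gave 19 higher (18.4%) and 4 lower (3.88%) among 103 compared, with a median of 0.28. Over all features 16.2% were higher and 20.1% lower in that comparison.

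The brightest member was the R interval chr11:22681800-22707775, with 10.43, 10.35, 10.91 and 9.84 from its 1 probe. The F interval chr12:73838608-73862621 had 9.26, 9.20, 10.05 and 9.17. The smallest range was that of the F interval chr8:40100925-40196350 with 1.07, 1.14, 1.08 and 1.07, although 3 other probes differed by -0.90 to 0.26 between Lin+ cells and LT-HSC. Of the members above background on all arrays, the longest was the F interval chr3:34003359-34537330 (533972 bases) with -1.39, -0.99, -0.27 and -1.46. The longest of all, 7128487 bases, carried 1 probe that was not well above background on any array.

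At the length threshold, the F and R intervals chr19:24978025-24988025, with 10001 bases, were not above background anywhere, and the F interval chr1:138528250-138538250, also 10001 bases, had -1.82, -1.32, -2.38 and -1.96. Just below it, the R interval chr6:136440100-136450050, with 9951 bases, had -1.04 in ST-HSC and -1.22 in progenitors and was not above background in the others. The F interval chr3:21964899-21974885, with 9987 bases, was above background in progenitors only, at -1.10.

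For comparison, 24 known long non-coding RNAs were looked up by name and 15 were on the array. Of those compared, 1 was higher and 2 were lower of 14 in ST-HSC against LT-HSC, 2 and 1 of 12 in progenitors against ST-HSC, 1 and 5 of 11 in Lin+ cells against progenitors, and 1 and 4 of 14 in Lin+ cells against LT-HSC. The shares of all features called higher and lower were 5.84% and 7.81%, 11.0% and 9.35%, 13.9% and 26.0%, and 16.2% and 20.1%. Pvt1, the host of a microRNA cluster beside the Myc gene, had -0.99, -0.76, 1.64 and -0.68 and peaked in progenitors. Malat1, a nuclear speckle RNA, had 0.48, 1.26, 0.13 and 2.50 and was highest in Lin+ cells.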

How the data were processed

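Total RNA (10 ng, with spike-in controls) was labelled with Cy3, per the labels' protocols. The deposited scanner files hold linear intensity from Agilent Feature Extraction 10.7.1.1, named in the submitters' processing notes. Per the file headers, background was subtracted and spatial trends were removed within each array, on build mm9. The authors' deposited value table is a ratio of that intensity to 1 constant per array (191, 217, 137 and 230; medians 0.0619, 0.0630, 0.0704 and 0.0738) and served as an alternative.

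Outlier spots were left out, spots of a probe averaged on the log2 scale, and 3 of 55681 probes dropped. A probe was well above background when all its spots were flagged so. Detection floors were -2.94, -3.39, -2.87 and -3.47. Named members are the largest and smallest differences and bounds, the brightest, longest, steadiest and most fraction-restricted, and those at the length threshold, besides members chosen after their values were seen because their probes changed together or because they neighbour such members. Members and lists were chosen with earlier results of these data known. The 70 members on chromosome 18 are counted and not named. Alternatives included normexp (limma 3.58.1, offset 50), run on the median spot and background signals. Genes near the intervals and probe sequences were not analysed here. Python 3.11.15, numpy 2.4.6 and pandas 2.3.3 were used. The number of arrays limits the precision.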

Additional observations from a re-analysis of the deposited data

How the results depend on the processing

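No paired analysis was possible because every fraction has 1 array, all labelled replicate 1. In the order ST-HSC against LT-HSC, progenitors against ST-HSC, Lin+ against progenitors and Lin+ against LT-HSC, higher and lower members numbered 81 and 60, 234 and 106, 131 and 291, and 194 and 143. Normexp gave 28 and 22, 71 and 34, 60 and 135, and 90 and 85. Members above background on both arrays gave 30 and 22, 144 and 53, 77 and 193, and 110 and 78. Without background filter or floor the counts were 214 and 155, 405 and 212, 255 and 466, and 379 and 239. The mean of an interval's probes gave 25 and 18, 67 and 37, 47 and 113, and 69 and 70. Intervals of at least 20000 bases gave 51 and 33, 131 and 66, 85 and 181, and 124 and 86, and a 4-fold threshold 24 and 24, 52 and 30, 44 and 83, and 63 and 55. Fewer features enter with the length and both-arrays rules, and a 4-fold threshold is stricter by construction. For the others the cause was not tested.

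Scaling to the spike-in controls gave 129 and 37 members for ST-HSC against LT-HSC (median 0.30), 70 and 208 for progenitors against ST-HSC (median reversed to -0.092) and 295 and 117 for Lin+ against progenitors (median reversed to 0.19), and it moved the median for Lin+ against LT-HSC to 0.39. Scaling to the median gave 148 higher members for progenitors against ST-HSC and a median of -0.15 for Lin+ against LT-HSC. With the percentile over detected probes, 121 members were higher in progenitors than in ST-HSC (median 0.27), and 224 were higher and 160 lower in Lin+ cells than in progenitors (median -0.022). With the median feature at 0 these counts were 116, 234 and 152. In the main scaling the median feature differed by 0.29, -0.43 and -0.15 in the last 3 comparisons. With spike-in scaling it differed by 0.33, -0.34, 0.17 and 0.14 in the order of the comparisons above. Scaled to the median, it was 0.13 for progenitors against ST-HSC and -0.4 for Lin+ against LT-HSC. By construction, these scalings shift all features of an array alike and not the long intervals alone. Shares of all features called under the alternatives are not given here.

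Members highest in LT-HSC, ST-HSC, progenitors and Lin+ cells numbered 9, 12, 22 and 35. A 2-fold rule gave 31, 48, 95 and 97, normexp 0, 0, 2 and 15, no background filter or floor 25, 41, 52 and 66, and the mean of probes 2, 0, 2 and 6. Spike-in scaling gave 21 in ST-HSC and 54 in Lin+ cells. Of 466 values of 72 single differences under the alternatives, 457 kept their direction and their side of 2-fold and 8 fell under 2-fold. Named differences were largely picked for their size, so keeping their side of 2-fold was partly built in. For the R interval chrX:146827709-146913398 the mean of probes reversed Lin+ against LT-HSC to -0.12, and for the F interval chr6:145647711-145756861 it gave 0.29. Alternatives for genes near the intervals were not run.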
